A study of Sus scrofa with 44 samples.

Results

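The 10 genes described here carry a signal from cell to cell through the Notch receptors: the receptors NOTCH1, NOTCH2 and NOTCH3, the membrane-bound ligands DLL1, JAG1 and JAG2, the DNA-binding factor RBPJ, and the target genes HES1, HEY1 and HEYL. They were taken by the symbol of their Ensembl pig gene identifier, with no measured value in the rule, and are 10 of the 22427 genes in the expression files. All 10 had a mean of at least 1 TPM (a transcript abundance corrected for transcript length and scaled to a fixed sum per library) over the muscle libraries and so entered the tests. The series is a time course of longissimus dorsi, a back muscle, in pig fetuses, sampled 33, 40, 50, 60, 70 and 95 days after coitus (stages named E33 to E95) and made to follow N6-methyladenosine (m6A), a methyl mark on RNA. Each stage has 3 input libraries and 3 libraries immunoprecipitated with an m6A antibody, from rRNA-depleted RNA. A further 8 libraries come from PK15, a kidney cell line from adult pig, prepared from polyA RNA or rRNA-depleted RNA. No breed, sex, genotype or treatment is given for the muscle samples, and nothing says whether replicates are separate animals, so the p-values measure the spread between these samples.

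Notch receptors are cut by ADAM proteases and then by γ-secretase when a ligand on a neighbouring cell pulls on them. The freed intracellular part enters the nucleus, joins RBPJ and Mastermind-like coactivators, and turns on repressors of the HES and HEY families. In fetal muscle this signal is known to hold PAX7-positive progenitor cells back from differentiation, and in vessels it links endothelial cells with their mural cells.

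The deposited peak lists, 1 per stage and 1 per PK15 preparation, gave m6A peaks for 8 of the 10 genes in muscle: NOTCH1, NOTCH2, NOTCH3, JAG1, JAG2, HES1, HEY1 and RBPJ. Among all 13334 genes tested for expression, 45.8% had a peak in at least 1 muscle list. DLL1 and HEYL had no peak in any of the 8 lists. NOTCH1, NOTCH2, NOTCH3, JAG1 and RBPJ had a peak at all 6 stages, as did 18.3% of the tested genes. Fold enrichment and peak limits are the authors' values, each list stands for its stage with no replicate of its own, and differences in fold between lists were therefore not tested.

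Every one of the 8 genes had a muscle peak whose midpoint lay within 200 bases of the end of the stop codon, measured along its RefSeq transcript. Of the 5178 genes whose muscle peaks could be placed on such a transcript, 43.4% had a peak there. For this reason the last 150 coding bases of 9 of the 10 genes, stop codon included, are shown in transcript direction from the Sscrofa11.1 reference, with the m6A-type motif in capitals, in any of its forms GGACA or GGACC or GGACT. The motif was read on the transcript strand alone, and its 3 forms cannot overlap each other. In NOTCH1 the stretch lies on an unplaced scaffold at 1251155 to 1251304, plus strand.
NOTCH1: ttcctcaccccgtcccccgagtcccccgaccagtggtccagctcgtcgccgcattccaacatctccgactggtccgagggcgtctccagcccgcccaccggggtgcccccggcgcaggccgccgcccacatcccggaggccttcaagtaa
In NOTCH2 it lies at chr4:101146493-101146642, plus strand.
NOTCH2: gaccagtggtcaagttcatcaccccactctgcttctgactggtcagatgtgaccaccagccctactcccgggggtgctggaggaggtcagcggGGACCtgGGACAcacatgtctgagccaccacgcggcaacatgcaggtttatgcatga
In NOTCH3 it lies at chr2:62401170-62401319, plus strand.
NOTCH3: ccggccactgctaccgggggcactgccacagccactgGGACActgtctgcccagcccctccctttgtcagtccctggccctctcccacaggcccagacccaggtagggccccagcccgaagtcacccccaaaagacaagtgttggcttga
In DLL1 it spans 3 coding exons within chr1:207197-209408, plus strand.
DLL1: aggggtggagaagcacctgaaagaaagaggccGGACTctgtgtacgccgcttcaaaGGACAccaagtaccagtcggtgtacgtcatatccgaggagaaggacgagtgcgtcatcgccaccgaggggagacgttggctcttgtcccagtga
In JAG1 it lies at chr17:19592735-19592884, minus strand.
JAG1: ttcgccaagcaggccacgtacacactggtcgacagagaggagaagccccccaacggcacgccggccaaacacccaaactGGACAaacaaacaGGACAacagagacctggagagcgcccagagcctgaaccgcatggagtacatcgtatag
In JAG2 it lies on another unplaced scaffold at 3263115 to 3263264, minus strand.
JAG2: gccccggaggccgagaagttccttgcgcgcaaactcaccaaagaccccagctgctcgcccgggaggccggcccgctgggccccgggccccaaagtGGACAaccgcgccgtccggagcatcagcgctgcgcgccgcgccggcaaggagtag
In HES1 it lies at chr13:131137712-131137861, plus strand.
HES1: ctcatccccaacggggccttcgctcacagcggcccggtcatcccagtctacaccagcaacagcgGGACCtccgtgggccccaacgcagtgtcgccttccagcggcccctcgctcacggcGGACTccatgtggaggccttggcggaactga
In HEYL it lies at chr6:95445150-95445299, minus strand.
HEYL: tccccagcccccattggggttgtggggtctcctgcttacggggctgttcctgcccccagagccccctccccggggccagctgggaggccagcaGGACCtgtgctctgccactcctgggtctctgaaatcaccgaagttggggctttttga
In RBPJ it lies at chr8:20162539-20162688, plus strand.
RBPJ: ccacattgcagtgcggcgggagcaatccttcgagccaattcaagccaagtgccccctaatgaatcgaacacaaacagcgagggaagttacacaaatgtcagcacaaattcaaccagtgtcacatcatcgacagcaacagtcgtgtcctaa

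Motif counts in these coding stretches did not separate the genes with peaks from DLL1 and HEYL, the only members without. DLL1, with no peak, held 2 of the motifs there, and HEYL, also with no peak, held 1. NOTCH2, JAG1 and HES1 held 2 each, NOTCH3 and JAG2 held 1 each, and NOTCH1 and RBPJ held none. The next 150 bases, in the 3′ UTR, held 1 motif in each of NOTCH1, RBPJ, DLL1 and HEYL, 2 in JAG2 and none in NOTCH2, NOTCH3 and JAG1. In NOTCH1 and RBPJ, the part of the stop codon site shared by all 6 muscle lists also held 1 motif. Across 20638 RefSeq coding genes, 46.6% held at least 1 motif in the last 150 coding bases. The share was 50.5% among 5101 tested genes with a muscle peak and 47.0% among 4966 without. Muscle peaks covered all 150 of these bases in NOTCH1, NOTCH2, JAG1, JAG2 and RBPJ, 125 in NOTCH3 and 96 in HES1.

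**Figure D1:**
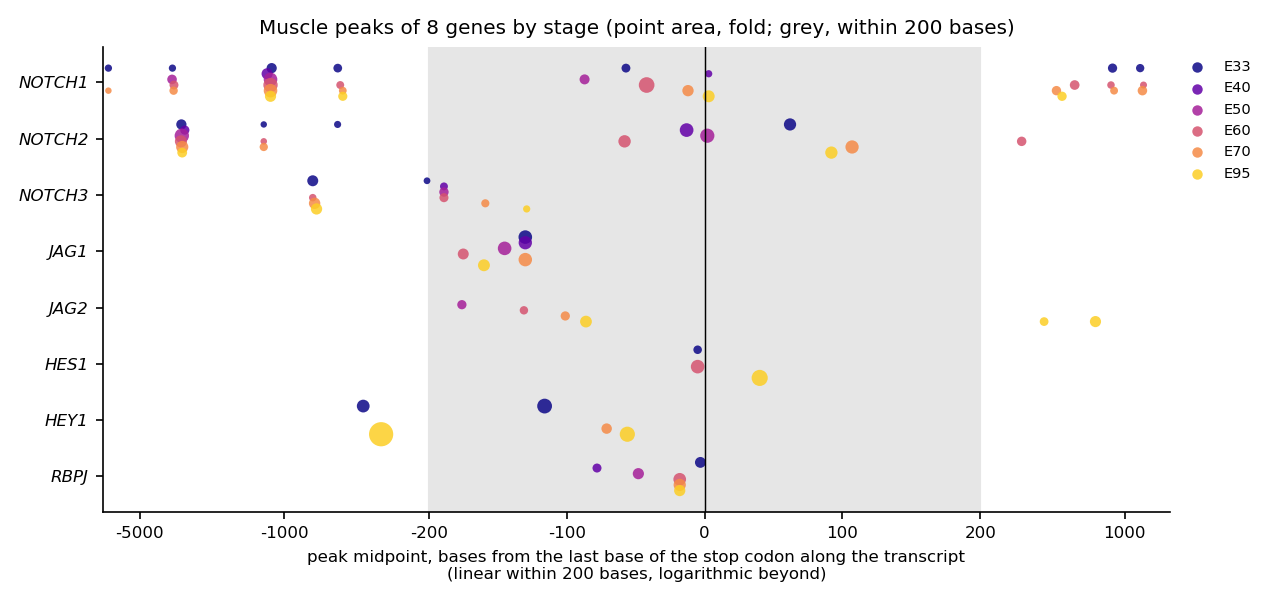
Midpoints of the 84 muscle peaks of 8 genes, in bases from the last base of the stop codon along the RefSeq transcript (negative is upstream; the axis is linear within 200 bases and logarithmic beyond), coloured by stage, with point area proportional to fold enrichment. Each gene has points in the grey band around the stop codon, and NOTCH1 and NOTCH2 have further sites far upstream, outside the band.

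Among the receptors, NOTCH1 had the most peaks, 31 over the 6 muscle lists, which joined into 8 sites when peaks sharing at least 1 base were counted as 1 site. The site over its stop codon was in all 6 lists, with a fold enrichment of 3.63 (E33), 2.43 (E40), 4.63 (E50), 11.3 (E60), 5.93 (E70) and 6.63 (E95). The E60 value was above 96.3% of all peaks of that list, whereas the E40 value was above 8.30% of its own. Another NOTCH1 site, 1210 coding bases upstream in the same last exon, was also in all 6 lists and in the PK15 polyA list. Its fold was 4.80, 5.69, 8.52, 9.50, 8.47 and 5.76 from E33 to E95, with E50, E60 and E70 the highest, whereas at the stop codon E60 alone stood out. The part shared by all 6 lists, shown because it recurred away from the stop codon, lies at 1250049 to 1250138 of the scaffold and holds no motif.
NOTCH1 upstream site: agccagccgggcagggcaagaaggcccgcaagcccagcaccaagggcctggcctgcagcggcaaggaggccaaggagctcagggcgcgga

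NOTCH2 had 17 muscle peaks in 4 sites, and both PK15 lists had peaks at all 4. The stop codon site had a fold of 6.92, 8.64, 9.34, 7.10, 8.10 and 6.98 from E33 to E95, taking the stronger peak at E60, and 13.5 and 8.88 in the PK15 polyA and rRNA-depleted lists. Another recurrent site lay 3024 coding bases upstream, in exon 25 of 34, with a fold of 4.85, 3.88, 9.49, 6.79, 6.89 and 4.43. The stretch shared by all 6 muscle lists, chr4:101135898-101136078 on the plus strand, holds 1 GGACT.
NOTCH2 upstream site: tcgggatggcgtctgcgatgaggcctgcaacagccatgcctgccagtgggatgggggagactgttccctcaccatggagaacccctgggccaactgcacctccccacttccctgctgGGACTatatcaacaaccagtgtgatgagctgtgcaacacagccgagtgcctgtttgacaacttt

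NOTCH3 had 10 peaks in 2 sites, all in its last exon, 33. Its recurrent site ended short of the stop codon and was weak, with a fold of 2.11 (E33), 2.90 (E40), 4.07 (E50), 3.78 (E60), 3.06 (E70) and 2.41 (E95). Each of these values was below the median of its list, which ranged from 3.51 to 4.88 over the muscle lists. The site centred 713 bases upstream of the stop codon was in 4 lists and stronger at E33, E70 and E95, with a fold of 5.56, 6.02 and 5.88. NOTCH3 had no peak in either PK15 list, where NOTCH2 had 6 and 4.

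Of the ligands, JAG1 had a single site in muscle, over its stop codon, which all 8 lists held. Its fold was 8.51 (E33), 8.17 (E40), 8.52 (E50), 5.54 (E60), 8.37 (E70) and 6.55 (E95), above the list median each time. The 301 bases common to the 6 muscle lists held 5 motifs, the most of any such shared stretch. JAG2 had no peak at E33 or E40 and a site by the stop codon at each later stage, which covered it at E60, E70 and E95 but ended short of it at E50, with a fold of 3.96, 3.27, 3.94 and 6.39 from E50 to E95. The scaled level of JAG2 was 10.02 ± 3.26 and 14.1 ± 1.45 TPM (SD, n = 3) at the stages without a peak and 20.6 to 41.8 TPM on average at those with it. At E95 alone JAG2 had 2 further peaks in its 3′ UTR, with a fold of 3.53 and 5.73, and the PK15 lists had peaks over both places. DLL1 had no peak in any list.

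RBPJ had 1 muscle site, over the stop codon in exon 11, in all 6 lists, with a fold between 3.75 at E40 and 7.39 at E60. The same site had a fold of 6.50 in the PK15 polyA list and 36.8 in the PK15 rRNA-depleted list. Of the targets, HES1 had a peak over its stop codon at E33, E60 and E95, with a fold of 3.37, 8.53 and 12.0, and in both PK15 lists. These peaks ran past the end of the RefSeq transcript of HES1, which stops 4 bases after the stop codon. HEY1 had 2 sites in its last exon and none in PK15. The upstream one reached a fold of 27.0 at E95, above 99.8% of the peaks of that list, after 7.52 at E33. The site near its stop codon had a fold of 10.1 at E33, 5.04 at E70 and 10.6 at E95. HEYL, the third target, had no peak.

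Counted by list in stage order from E33, 7, 5, 6, 7, 7 and 8 of the 10 genes had a peak, E40 with the fewest and E95 with the most. Among genes with a stage mean of at least 1 TPM, 33.5%, 22.9%, 32.6%, 31.7%, 35.6% and 37.5% had a peak in those lists. The E40 list was the shortest, with 4928 peaks against 7058 to 8685 in the others. In PK15, 6 of the 10 genes had a peak in the polyA list and 5 in the rRNA-depleted list, against 37.7% and 23.7% of all 22427 genes. No expression level was available for PK15, so these shares have no filter on level, unlike the muscle shares. Whether the genes without a PK15 peak were expressed in these cells is unknown. The genes differed in how their peaks and their level ran together. HEYL reached a mean of 25.4 TPM and DLL1 20.0 TPM with no peak, whereas RBPJ, NOTCH2 and JAG1 had a peak at every stage with stage means of 5.21 to 8.05, 6.84 to 8.73 and 6.20 to 14.2 TPM. HES1 had peaks at stages with 28.4, 30.9 and 29.7 TPM and none at stages with 25.8, 33.1 and 22.7 TPM. JAG2, in contrast, had no peak at 10.02 and 14.1 TPM (E33 and E40) and peaks at stage means of 20.6 to 41.8 TPM. NOTCH1 had 7, 2, 3, 7, 8 and 4 peaks from E33 to E95, at 23.1, 21.4, 27.8, 39.7, 36.9 and 31.4 TPM. What sets these differences was not tested.

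**Figure D2:**
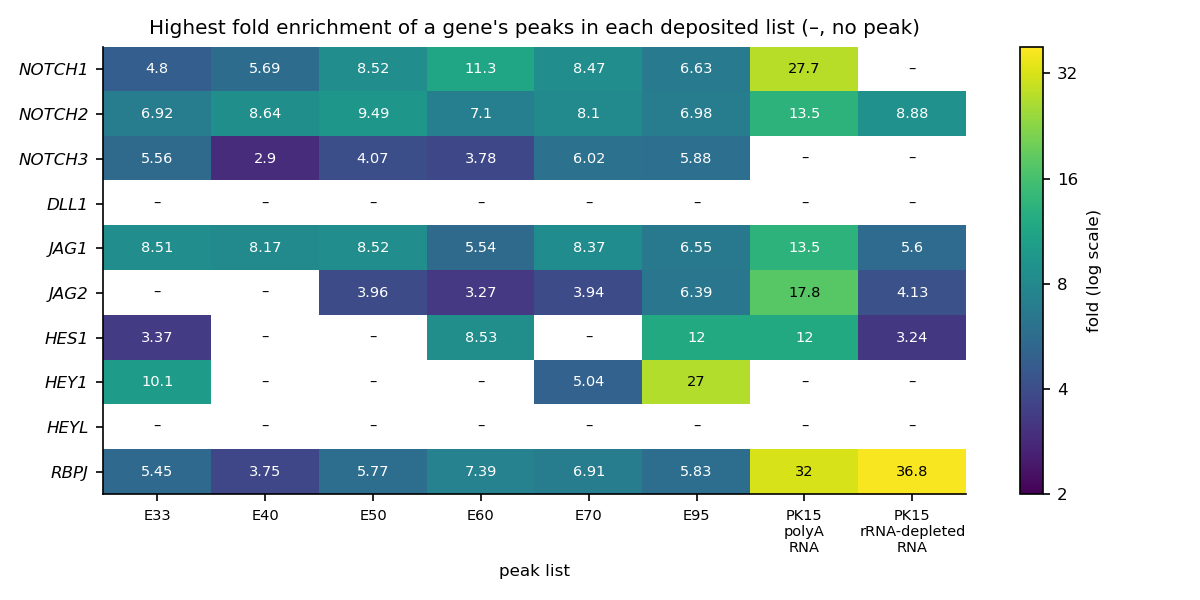
Highest fold enrichment among the peaks of each gene in each of the 8 deposited lists, on a logarithmic colour scale, with a dash where the list has no peak for the gene. NOTCH1, NOTCH2, NOTCH3, JAG1 and RBPJ are filled at all 6 muscle stages, JAG2 from E50 on, and DLL1 and HEYL nowhere.

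Expression levels rest on the 18 muscle input libraries. Each file sums to 1000000 TPM, so sequencing depth is unknown. A gene listed as ENSSSCG00000032395 took between 37.4% and 72.4% of a library's TPM, and ENSSSCG00000032599 took 14.4% and 17.3% in E40 replicate 2 and E50 replicate 3 against at most 1.19% in the other 16 libraries, so TPM as deposited shift for all genes together. Levels were therefore divided by a median-ratio factor per library, which ran from 0.315 to 1.98, and are called scaled TPM; changes in log2(scaled TPM + 1) come from limma fitted over all 13334 genes, and for the change from E33 to E95 of the 10 genes the value in TPM as deposited is given too. Between E33 and E95 the median gene changed by −0.02 on the scaled values and by −1.02 on the deposited ones, so every direction below is relative to the other genes of the library. Muscle fibre genes were present at every stage, with 7 of 9 listed markers measured and a summed scaled level of 3069 to 3672 TPM at E33 and 17901 to 25537 TPM at E95. In bulk tissue, fewer cells of a type and less RNA per cell cannot be told apart.

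Across the 6 stages, limma's F test called 7 of the 10 genes at an adjusted p under 0.05: JAG1, JAG2, HEYL, NOTCH1, NOTCH3, RBPJ and DLL1. It called 47.0% of all genes tested. NOTCH2, HES1 and HEY1 were not called, with adjusted p of 0.0931, 0.288 and 0.266. On TPM as deposited the F test called HEYL alone, with an adjusted p of 0.0486, against 2680 of all 13334 genes. Between E33 and E95, 4 of the 10 genes were called, against 46.2% of all genes. JAG2, JAG1 and HEYL were higher at E95, as were 21.7% of all genes, and NOTCH2 was lower, as were 24.5%. On TPM as deposited, only NOTCH2 was called in that comparison, against 48.5% of all genes. The median change of the 10 genes was 0.30 on the scaled values and −0.87 on the deposited values.

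**Figure D3:**
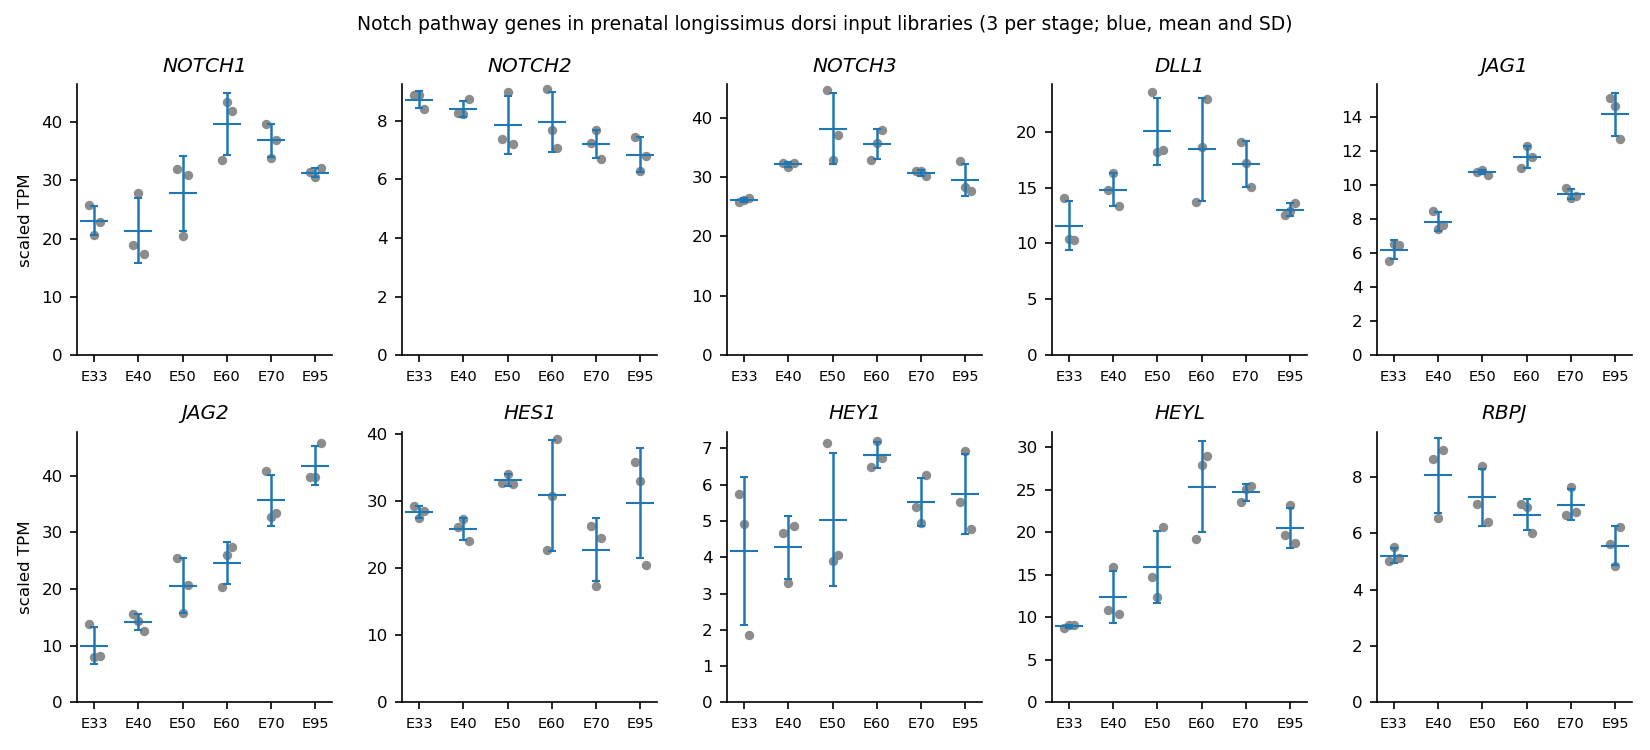
Scaled TPM of the 10 genes in each of the 18 muscle input libraries (grey points) with the stage mean and SD (blue, n = 3), each panel from 0. JAG2 climbs from a mean of 10.02 (E33) to 41.8 (E95), DLL1 and NOTCH3 are highest on average at E50, and HES1 shows no stage apart from the rest.

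JAG2 had the largest change of the 10 genes. Its scaled level was 13.8, 8.07 and 8.21 TPM (E33), 15.5, 14.3 and 12.6 (E40), 25.4, 15.7 and 20.7 (E50), 20.4, 26.0 and 27.4 (E60), 40.7, 32.6 and 33.5 (E70), and 39.7, 39.8 and 45.8 (E95). All 6 libraries of E70 and E95 lay above the 12 of the earlier stages. The change from E33 to E95 was 1.99 (SE 0.20, adjusted p = 1.21e-06 with limma). As deposited, the values of 15.6 to 16.4 TPM at E33 and 23.9 to 39.5 TPM at E95 also did not overlap, with a change of 0.82 (SE 0.46, adjusted p = 0.137).

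JAG1 was measured at 5.56, 6.54 and 6.50 scaled TPM (E33), 8.49, 7.43 and 7.65 (E40), 10.8, 10.9 and 10.6 (E50), 11.0, 12.3 and 11.7 (E60), 9.84, 9.23 and 9.40 (E70), and 15.1, 14.7 and 12.7 (E95). The E95 libraries lay above all others, and the E70 libraries below those of E50 and E60. Its change from E33 to E95 was 1.07 (SE 0.08, adjusted p = 9.03e-08), and −0.05 as deposited (SE 0.45, adjusted p = 0.933), where the groups overlapped.

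DLL1, the ligand that myogenic cells are known to present to progenitors, was highest in the middle of the series. It stood at 14.1, 10.4 and 10.3 scaled TPM (E33), 14.8, 16.3 and 13.4 (E40), 23.5, 18.2 and 18.4 (E50), 13.7, 18.6 and 22.9 (E60), 19.1, 17.2 and 15.0 (E70), and 12.5, 12.9 and 13.6 (E95). The libraries of E33 and E95 overlapped, and those of E50 lay above both. From E33 to E95 its change was 0.17 (SE 0.17, adjusted p = 0.443), and −0.98 as deposited (SE 0.47, adjusted p = 0.0847). Its F test had an adjusted p of 0.0134. Markers of muscle progenitors moved alongside: 7 of 8 were measured, none at 0, with a summed level of 97.4 to 117 TPM at E33, 127 to 178 at E50 and 110 to 122 at E95, and their part in the result was not tested.

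Among the receptors, NOTCH1 and NOTCH3 were the abundant ones and NOTCH2 the least. NOTCH1 was 25.7, 20.7 and 22.9 scaled TPM (E33), 19.0, 27.7 and 17.4 (E40), 32.0, 20.4 and 30.9 (E50), 33.6, 43.5 and 41.9 (E60), 39.7, 33.9 and 37.0 (E70), and 31.4, 30.6 and 32.1 (E95). Every library from E60 on exceeded every library of E33 and E40. The change from E33 to E95, 0.43 (SE 0.18), had an adjusted p of 0.0637, and as low as 0.0301 with 1 library left out, where it was called without E40 replicate 2 or without E50 replicate 2. Its F test had an adjusted p of 0.0042. As deposited the change was −0.77 (SE 0.43, adjusted p = 0.132).

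NOTCH3, known for its role in vascular mural cells and in muscle stem cells, was 25.8, 26.1 and 26.6 scaled TPM (E33), 32.3, 31.7 and 32.5 (E40), 44.7, 32.8 and 37.0 (E50), 32.9, 35.8 and 38.0 (E60), 31.1, 31.0 and 30.1 (E70), and 32.6, 28.3 and 27.7 (E95). The 3 E33 libraries were the lowest of the 18. The F test had an adjusted p of 0.0068, and the change from E33 to E95 was 0.16 (SE 0.10, adjusted p = 0.199), or −1.03 as deposited (SE 0.49, adjusted p = 0.0825). Of the 11 pericyte and smooth muscle markers listed, CSPG4 had its highest stage mean at E50, as NOTCH3 did, ABCC9 and CNN1 at E70, ACTA2 and TAGLN at E33, and the other 6 at E95. Their part in the course of NOTCH3 was not tested.

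NOTCH2 was 8.88, 8.89 and 8.40 scaled TPM at E33 and 7.46, 6.28 and 6.79 at E95, with no overlap, and its 12 libraries in between ranged from 6.70 to 9.10. The change was −0.31 (SE 0.10, adjusted p = 0.0168), and without E95 replicate 2 the adjusted p was 0.0682. As deposited NOTCH2 fell by 1.42 on the log2 scale (SE 0.45, adjusted p = 0.0161), beside a median of −1.02 for all genes.

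RBPJ, which binds DNA for the whole pathway, was 5.01, 5.50 and 5.13 scaled TPM (E33), 8.65, 6.53 and 8.97 (E40), 7.02, 8.39 and 6.40 (E50), 7.03, 6.94 and 6.02 (E60), 6.63, 7.64 and 6.74 (E70), and 5.62, 4.83 and 6.22 (E95). Its E40 to E70 libraries all lay above its E33 libraries, while E95 and E33 overlapped. Its change from E33 to E95 was 0.07 (SE 0.12, adjusted p = 0.655), and −0.98 as deposited (SE 0.48, adjusted p = 0.0901). The F test had an adjusted p of 0.0126.

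The 3 targets differed in their course. HEYL was 8.72, 9.07 and 9.05 scaled TPM (E33), 10.9, 15.9 and 10.4 (E40), 14.8, 12.4 and 20.6 (E50), 19.2, 28.0 and 28.9 (E60), 23.6, 25.1 and 25.4 (E70), and 19.6, 23.2 and 18.7 (E95). The E33 libraries were the lowest 3, and the change from E33 to E95 was 1.11 (SE 0.19, adjusted p = 0.000228). As deposited it was −0.05 (SE 0.40, adjusted p = 0.925), with overlapping groups.

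HES1 was 29.2, 27.5 and 28.5 scaled TPM (E33), 26.1, 27.2 and 24.0 (E40), 32.6, 34.1 and 32.5 (E50), 22.7, 30.7 and 39.2 (E60), 26.3, 17.4 and 24.5 (E70), and 35.8, 32.9 and 20.5 (E95). The libraries of E60 and of E95 spread more widely than those of the other stages, and no stage lay apart from all others. Its change from E33 to E95 was 0.03 (SE 0.21, adjusted p = 0.935), whose sign turned when E95 replicate 1 or E95 replicate 2 was left out, and as deposited it was −1.18 (SE 0.49, adjusted p = 0.0527). HEY1 stayed low throughout, from 1.86 TPM in E33 replicate 3 to 7.19 TPM in E60 replicate 2, with a change of 0.46 (SE 0.27, adjusted p = 0.179), or −0.55 as deposited (SE 0.46, adjusted p = 0.314).

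**Figure D4:**
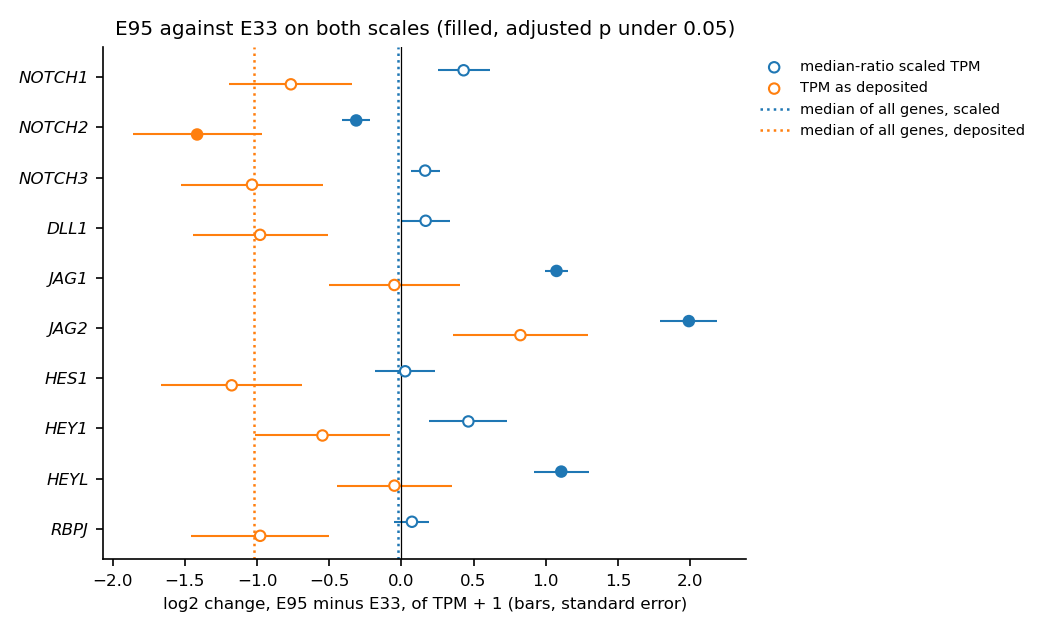
Change in log2(TPM + 1) from E33 to E95 for the 10 genes on scaled TPM (blue) and TPM as deposited (orange), with the limma standard error; filled points have an adjusted p under 0.05, and dotted lines mark the median of all genes, −0.02 and −1.02. JAG2 lies farthest to the right on both scales and NOTCH2 farthest to the left.

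Between neighbouring stages few of the 10 genes moved beyond the spread. From E33 to E40, limma called 2: JAG1, higher by 0.30 (SE 0.08, adjusted p = 0.0199), and RBPJ, higher by 0.53 (SE 0.12, adjusted p = 0.00697), against 20.5% of all genes. JAG1 lost this call without E33 replicate 1 or without E40 replicate 1, with adjusted p up to 0.0949. NOTCH3, not called, passed without E50 replicate 1 or E50 replicate 2 (adjusted p down to 0.0266), and JAG2 without E33 replicate 1 (0.0167). With only the 6 libraries of both stages the adjusted p was 0.0992 for JAG1 and 0.0544 for RBPJ, and without the 2 most abundant genes 0.232 and 0.0877. From E40 to E50, JAG1 alone was called, higher by 0.41 (SE 0.08, adjusted p = 0.0257), against 1.50% of all genes, and leaving out E40 replicate 2, E40 replicate 3, E50 replicate 1 or E50 replicate 3 ended that call, with adjusted p up to 0.0929. So did the replicate number as a block (adjusted p = 0.0512), only the 6 libraries of both stages (0.267), TPM without the 2 most abundant genes (0.236) and leaving out E40 replicate 2 and E50 replicate 3 together (0.187). From E50 to E60 and from E60 to E70 limma called none of the 10, against 0.802% and 1.81% of all genes. At an unadjusted p under 0.05 there were 2 in each, NOTCH1 and HEYL in the earlier comparison and JAG1 and JAG2 in the later. Of all 13334 genes, 1555 and 1705 had such a p. From E70 to E95, JAG1 was called again, higher by 0.53 (SE 0.08, adjusted p = 0.000651), against 13.3% of all genes, with an adjusted p of 0.0886 without the 2 most abundant genes. Neighbouring comparisons share the libraries of a stage. On TPM as deposited none of the 10 was called in any of these 5. At an unadjusted p under 0.05 there were 4 from E50 to E60, against 1924 of all 13334 genes. In the other comparisons there were 0, against 367 to 3459 of all genes. Few genes of any kind were called on that scale: 649, 1, 8, 11 and 38 of 13334 in stage order.

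The rank of the 10 genes within the tissue changed with stage. At E33 the order of mean scaled TPM was HES1, NOTCH3, NOTCH1, DLL1, JAG2, HEYL, NOTCH2, JAG1, RBPJ and HEY1, and the ranges of DLL1, JAG2, HEYL and NOTCH2 overlapped from each to the next, as did those of RBPJ and HEY1. At E95 it was JAG2, NOTCH1, HES1, NOTCH3, HEYL, JAG1, DLL1, NOTCH2, HEY1 and RBPJ. There JAG2 stood apart from NOTCH1 below it, while NOTCH1, HES1 and NOTCH3 overlapped from each to the next, as did JAG1 with DLL1, and NOTCH2, HEY1 and RBPJ.

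Ratios within a library do not depend on how libraries are scaled to each other, apart from the pseudocount. Of 7 ratios compared between E33 and E95, 4 had groups that did not overlap. An exact two-sided permutation test, whose smallest p is 0.1 with 3 libraries against 3, gave each of the 4 p = 0.1. After Benjamini-Hochberg adjustment over the 7 this was 0.175. The 7 ratios share genes and so are not independent, and ratios of other gene pairs were not compared. JAG1 relative to JAG2 was 0.67 at E33 and 0.355 at E95, a log2 difference of −0.92. Its groups lay close together, with a log2 ratio of −1.17 in E33 replicate 1 and −1.34 in E95 replicate 1. DLL1 relative to JAG1 went from 1.73 to 0.925, a log2 difference of −0.91; at E40 to E70 it was 1.50 to 1.78, so E95 was the stage that stood below the others on average. NOTCH2 relative to NOTCH1 went from 0.405 to 0.242 (log2 difference −0.74), and NOTCH3 relative to NOTCH2 from 2.79 to 3.89 (0.48). The groups overlapped for NOTCH3 relative to NOTCH1 (−0.27, exact p = 0.2), HEYL relative to HEY1 (0.64, exact p = 0.4) and HES1 relative to HEY1 (−0.44, exact p = 0.4).

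Over the 18 libraries, the gene with the course most like that of DLL1 was DTX4 (Pearson r = 0.90 of log2 scaled TPM), followed by PAX7 (0.88), which marks muscle progenitors. PAX7 ran from 11.6 to 13.2 TPM at E33, 23.1 to 25.4 at E50 and 11.5 to 16.0 at E95. JAG2 was most like PYGM (0.97), the muscle glycogen phosphorylase, and STIM1 (0.97), a calcium sensor of the endoplasmic reticulum. HEYL was most like MSN (0.96), the cytoskeletal linker moesin, and SMTN (0.94), the smooth muscle protein smoothelin. For NOTCH1 they were PXN (0.95), the focal adhesion protein paxillin, and FLNC (0.92), a filamin of muscle. The nearest to NOTCH3 were ADCYAP1R1 (0.91) and FAAH (0.87), to JAG1 COQ8A (0.95) and AVPI1 (0.93), and to RBPJ CHD1 (0.94) and STK3 (0.94). The 18 points share stages and scaling factors, so these values are a description.

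Of 52 further pathway genes listed by role, 51 matched a symbol in the files and 47 passed the filter. Between E33 and E95, limma called 13 of the 47 higher and 11 lower, with a median change of 0.15 against −0.02 for all genes, and the same comparison called 46.2% of all genes. Of the 4 other ligands and receptors tested, 3 were higher: DLK1, an imprinted and non-canonical ligand, went from 81.6 ± 15.8 to 396 ± 48.8 scaled TPM (SD, n = 3; change 2.28, adjusted p = 1.40e-08), NOTCH4, the endothelial receptor, from 2.66 ± 0.53 to 9.98 ± 1.22 (1.59, adjusted p = 2.46e-05), and DLL4, the endothelial ligand, from 4.61 ± 0.86 to 12.1 ± 2.01 (1.22, adjusted p = 0.000644). DLK2 was lower, with a change of −1.13 (adjusted p = 0.0307), and lost the call without E33 replicate 1, E33 replicate 3 or E95 replicate 2 (adjusted p up to 0.126). As deposited the changes were 1.05 for DLK1, 0.56 for NOTCH4, 0.14 for DLL4 and −2.03 for DLK2, the last alone called. Endothelial markers moved the same way: 10 of 12 were measured, none was at 0, and their sum was 47.1 to 54.1 TPM at E33 and 138 to 148 TPM at E95. Their part in the changes of NOTCH4, DLL4, JAG2 and HEYL was not tested.

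Of 5 tested enzymes that add sugars to the receptor, 1 was called, LFNG, a fringe glycosyltransferase that tunes the response to DLL and JAG ligands, which was lower at E95 (21.2 ± 4.17 to 12.5 ± 1.52 TPM, change −0.70, adjusted p = 0.00372; −1.87 as deposited). MFNG did not reach the filter. Of 9 cleavage genes, the γ-secretase subunits PSENEN (1.15, adjusted p = 0.00924) and PSEN2 (0.57, adjusted p = 0.000384) were higher and NCSTN (−0.24, adjusted p = 0.0307) lower. NCSTN lost the call without E33 replicate 1, E33 replicate 2, E95 replicate 1 or E95 replicate 3 (adjusted p up to 0.109), and PSENEN without E33 replicate 1 (0.0528). As deposited the changes were −0.0079 for PSENEN, −0.56 for PSEN2 and −1.40 for NCSTN, so PSENEN and PSEN2 turned sign. ADAM10, the protease of the outer cut, had a change of 0.24 (adjusted p = 0.271), and −0.78 as deposited.

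Of 12 ubiquitin ligases and endocytic regulators, 5 were higher, led by NEURL1B (1.25, adjusted p = 0.000205) and DTX3L (1.11, adjusted p = 0.00457), and 2 lower, DTX3 (−1.15, adjusted p = 6.44e-05) and NUMBL (−0.51, adjusted p = 0.00961), a relative of the Notch antagonist NUMB. The NUMBL call was lost without E33 replicate 1 or E95 replicate 3 (adjusted p up to 0.0510). As deposited these changes were 0.24 for NEURL1B, 0.41 for DTX3L, −2.32 for DTX3 and −1.62 for NUMBL. Of 13 nuclear cofactors, 2 were higher, the acetyltransferase KAT2B (1.60, adjusted p = 8.86e-08) and the corepressor CIR1 (0.83, adjusted p = 4.41e-06), and 5 lower, led by the coactivator MAML3 (−0.94, adjusted p = 8.95e-05) and the deacetylase HDAC1 (−0.70, adjusted p = 0.000148). MAML1 had a change of −0.07 (adjusted p = 0.622). As deposited the values were 0.76 for KAT2B, −0.25 for CIR1, −1.95 for MAML3, −1.85 for HDAC1 and −1.16 for MAML1, so CIR1 turned sign. Of 4 other targets, HEY2 was higher (0.75, adjusted p = 0.00947) and HES6 lower (−0.65, adjusted p = 0.0132). HEY2 lost the call without E33 replicate 1 (adjusted p = 0.0513) and with a pseudocount of 0.1 (0.0632), and HES6 without E95 replicate 3 (0.0684); as deposited their changes were −0.010 and −1.86. NRARP was listed at 0 in 14 of the 18 libraries, and its change of 1.57 had an adjusted p of 0.337. On TPM as deposited none of the 47 was called higher, against 2.64% of all genes, and 20 were called lower, against 45.8%.

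**Figure D5:**
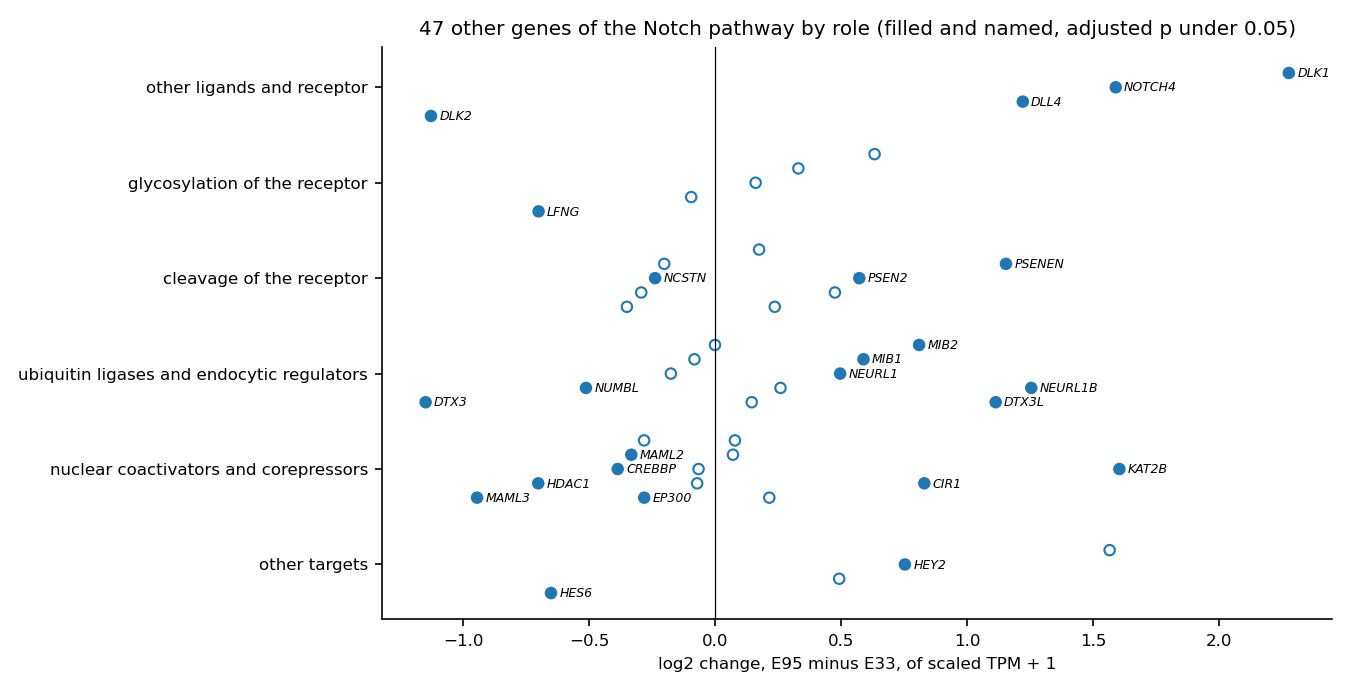
Change in log2(scaled TPM + 1) from E33 to E95 for 47 other genes of the pathway, grouped by role; filled and named points have an adjusted p under 0.05 with limma, open points do not, and vertical offsets only separate points. Points to the right of 0 were higher at E95, with DLK1, KAT2B and NOTCH4 the farthest among those called.

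Markers of other cells also differed between the first and last stage. Pericyte and smooth muscle markers, 11 of 11 measured, summed to 368 to 429 TPM at E33 and 1429 to 2196 at E95, mostly DES, which muscle fibres also express. Fibroblast markers, 7 of 8, summed to 2857 to 3637 and 5721 to 8652 TPM, and macrophage markers, 7 of 7, to 34.1 to 41.9 and 49.3 to 85.8 TPM. Markers of neurons and Schwann cells, 8 of 10, summed to 117 to 147 TPM at E33 and 17.3 to 73.9 at E95, where FABP7 was at 0. Erythroid markers, 7 of 8, summed to 82.5 to 222 and 7.99 to 11.8 TPM, with KLF1 at 0 at E33, and markers of dividing cells, 6 of 8, to 93.1 to 106 and 35.8 to 47.8 TPM. Their part in the changes of the Notch genes was not tested.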

How the data were processed

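Per the submitters' processing notes, reads were trimmed with Trimmomatic and aligned with HISAT2 to Sscrofa11.1; the peak caller, and whether replicates were pooled for it, are not given in the sources used here. Per the file headers, the authors deposited TPM per Ensembl gene for each muscle input library, and peak lists with a p-value and a fold enrichment ratio per peak. Symbols came from an Ensembl table. TPM were divided by median-ratio factors (over 7843 genes with at least 1 TPM in all 18 libraries), and genes with a mean of at least 1 deposited TPM were tested. limma 3.58.1 (R 4.3.3; lmFit, eBayes with trend) was fitted across all genes on log2(scaled TPM + 1) with 1 mean per stage, Benjamini-Hochberg adjusted, and tested on simulated data. Peaks were taken by gene identifier and placed on the RefSeq transcript with the longest coding part (NCBI annotation of Sscrofa11.1), read with pysam 0.24.0. The 10 genes, the pathway and marker lists and the scaling were chosen with earlier results of these data known. Pathway genes are named as up to 2 per role and direction with the largest called change, plus NOTCH4, DLL4, DLK1, LFNG, MFNG, ADAM10, MAML1, NRARP and HEY2. For each gene called by the F test, the 2 genes of highest correlation are named, among tested genes with a symbol outside the 10. A gene under this rule and 1 of the stop codon stretches are not reported here. Alternatives changed scaling, pseudocount, filter, libraries, variance trend and block, peak threshold, gene assignment and site overlap.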

Additional observations from a re-analysis of the deposited data

How the results depend on the processing

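Scaling decided most directions. For E95 against E33, TPM as deposited left 1 of the 10 genes called. That scale turned NOTCH1 (−0.77), NOTCH3 (−1.03), DLL1 (−0.98), JAG1 (−0.049), HES1 (−1.18), HEY1 (−0.55), HEYL (−0.048) and RBPJ (−0.98). Among other pathway genes it turned PSENEN (−0.0079), PSEN2 (−0.56), CIR1 (−0.25), HEY2 (−0.010) and ADAM10 (−0.78). The same values hold without E40 replicate 2 and E50 replicate 3, a setting chosen after seeing the data. There 7 genes were called, JAG2 higher and NOTCH1, NOTCH2, NOTCH3, DLL1, HES1 and RBPJ lower. Of those called lower, all except NOTCH2 had a positive change on the scaled values. Of all 13334 genes, 10093 were called in that setting, 9496 of them lower. TPM rescaled without the 2 most abundant genes called 7, against 8111 of all 13334 genes, 6925 of them lower. JAG1, JAG2, HEYL and NOTCH2 kept their call, and the other calls fell on genes whose sign turned. This rescaling turned NOTCH1 (−0.19), NOTCH3 (−0.46), DLL1 (−0.44), HES1 (−0.60), HEY1 (−0.047), RBPJ (−0.51), PSEN2 (−0.0090) and ADAM10 (−0.32). Quantile normalization turned HES1 (−0.11). With 1 library left out, HES1 ran from −0.12 to 0.27 and its sign turned without E95 replicate 1 (−0.12) or E95 replicate 2 (−0.06). JAG2 and NOTCH2 kept their direction under all of these settings.

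The F test called 1 gene on TPM as deposited in place of 7, against 2680 in place of 6272 of all 13334 genes. For E40 against E33, called genes went from 2 to 0 on TPM as deposited (JAG1 −0.36, RBPJ −0.10), also without E40 replicate 2 and E50 replicate 3 (0.14 and 0.48). Of all 13334 genes, 649 and 1532 were called in these settings. Called genes among the 10 went to 0 without the 2 most abundant genes, against 2568 of all genes. They ranged from 1 to 3 with 1 library left out, against 1595 to 3176 of all genes. With only the 6 libraries of both stages 1 gene was called, which was neither JAG1 nor RBPJ, against 1736 of all genes. For E50 against E40, 1 became 0 on TPM as deposited (also without those libraries), without the 2 most abundant genes, on scaled TPM without those libraries, with the replicate block, with only the 6 libraries, and 0 to 1 with 1 library left out. For E50 against E40 these settings called 1, 7, 105, 37, 127 and 10 of all 13334 genes in the order given. With 1 library left out it was 64 to 381. Without the 2 most abundant genes 1 gene was called for E60 against E50 and 1 for E70 against E60, against 111 and 377 of all genes. Without E40 replicate 2 and E50 replicate 3, 1 was called for E60 against E50. Of all genes, 78 were called there on scaled TPM and 15 on TPM as deposited. For E95 against E70, 1 became 0 on TPM as deposited, 3 without the 2 most abundant genes and 3 on deposited TPM without those libraries. Of all 13334 genes, 38, 2444 and 1908 were called in these settings. The replicate block changed no other call among the 10 genes. Residuals of same-numbered libraries correlated between −0.12 and 0.10, and those of differently numbered libraries between −0.13 and 0.11. Residuals around means of 3 libraries cannot decide whether same-numbered libraries share more than a number. The count of genes with a muscle peak was 8 with only peaks at or above the median fold and 8 by RefSeq exons, and a stricter overlap left 22 sites. For NOTCH1 and JAG2, on unplaced scaffolds, the scaffold was taken from peaks already assigned by identifier. The exon assignment therefore could not add a list for these genes.

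Depth is unknown, each peak list has no replicate, and 3 libraries a stage limit every test.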

Other observations

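PK15 cells had peaks at the 5′ ends of 3 of the genes that no muscle list held. RBPJ had a peak at chr8:20063162-20063342 in the polyA list, with a fold of 32.0, outside the exons of the RefSeq transcript used. NOTCH2 had a peak of 2 blocks within chr4:100951719-100981955 in the polyA list, with a fold of 8.47 and its midpoint in the 5′ UTR. Of its 210 bases, 176 lay in exons of the RefSeq transcript used, which starts at 100981727. JAG1 had a peak at chr17:19629397-19629577 in the rRNA-depleted list, with a fold of 2.16 and its midpoint in the 5′ UTR.

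Of the muscle peaks, 19 of 31 in NOTCH1, 16 of 17 in NOTCH2, 9 of 10 in NOTCH3, all 6 in JAG1, 4 of 6 in JAG2, all 3 in HES1, 4 of 5 in HEY1 and all 6 in RBPJ held at least 1 of the 3 motif forms. In windows of 101 bases around the midpoints of all placed peaks, 45.7% to 48.7% held a motif across the 6 muscle lists. Peaks of the 8 genes were 61 to 690 bases long, so the shares are over different lengths.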
